A study of Mus musculus with 12 samples.

Results

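The 10 genes described here are Csf1r, C1qa, C1qb, C1qc, Tyrobp, Fcgr3, Cx3cr1, Lyz2, Cd68 and Mrc1, a set of macrophage genes and the genes of complement C1q. They were chosen by symbol among the 22609 gene symbols counted in each library, and all 10 were found and passed the filter on low counts. RNA was sequenced from 12 samples of trigeminal ganglion (TG) cells of Balb/c athymic nude mice aged 6 to 8 weeks, a strain that lacks a thymus and so most T lymphocytes. There were 3 samples each of normal males (MN), males with a tongue tumor (MT), normal females (FN) and females with a tongue tumor (FT). Tumors were made by injecting HSC3, a human oral squamous carcinoma cell line, in the tongue, and ganglia were taken on day 15. On day 13 the fluorescent tracer wheat germ agglutinin (WGA) was injected in the tongue, from where nerve endings carry it to the neuron's cell body. Dissociated cells that were bright for WGA were sorted, with no gate against leukocytes described. Each sample pooled 4 ganglia, from 2 mice in MN and FN and from 4 mice in MT and FT, in which the tumor side alone was taken. The labels state that normal mice received no cells and give WGA as 0.5%, whereas the methods state that they received human oral keratinocytes and give another strength of WGA.

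Macrophages live among the neurons of sensory ganglia, where they clear debris and respond to nerve injury. Their survival depends on the receptor encoded by Csf1r, whose ligands are Csf1 and Il34, and much of their sensing of damage and of antibody runs through the adaptor encoded by Tyrobp and through Fc receptors. Tissue macrophages are also a main source of C1q, the recognition molecule of the classical complement pathway, which is built from A, B and C chains and tags debris and synapses for removal.

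Each library held 4592891 to 8922011 reads that were counted to genes, out of 30825251 to 42495642. The level of a gene in a library is given in CPM, its reads counted per 1000000 reads on genes, and levels of different genes are compared in RPKM, which also divides by exon length. The neuronal genes Tubb3 (1943 to 6006 CPM) and Prph (1564 to 4290 CPM) were abundant in every library, while Ptprc, the pan-leukocyte marker, reached at most 2.61 CPM. The labelled sex held in every library, with Xist at 0 to 0.422 CPM in the 6 male libraries and at 96.5 CPM or more in the 6 female ones. Libraries stood apart in 2 ways that touch the genes described here. In FN replicate 2, FT replicate 2 and FT replicate 3 between 52.6% and 68.4% of reads mapped to several places, against 43.0% to 45.5% in the other 9 libraries. MT replicate 3 lay apart from the other male libraries in these genes, as given below.

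In the mouse genome build mm9, to which the reads were aligned, the C1q genes formed a cluster on the minus strand of chromosome 4. C1qa lay at chr4:136451832-136454718, C1qc at chr4:136445719-136448980 and C1qb at chr4:136436044-136442102, a stretch of 18675 bases in all with gaps of 2851 and 3616 bases between neighbours. The others were on separate chromosomes, Tyrobp at chr7:31198807-31202596, Fcgr3 at chr1:172981300-172995066, Cx3cr1 at chr9:119957811-119977400, Lyz2 at chr10:116714390-116719377, Cd68 at chr11:69477715-69479655 and Mrc1 at chr2:14151041-14253684. Exon length ranged from 564 bases for Tyrobp to 5947 for Mrc1. Reads of 50 bases are unique to most of these transcripts. Of the stretches of 50 bases in the Csf1r transcripts, 15.7% also lay in Hmgxb3, which runs on the opposite strand and shares 871 exon bases, and the library kit does not mark strand, so that reads there cannot be assigned to either gene. Of those in Lyz2, 15.4% also lay in the neighbouring paralog Lyz1, which stood at 0.126 to 1.67 CPM, and of those in Fcgr3, 10.2% lay in Fcgr2b.

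The RefSeq promoter table (GRCm38.p6) held 7 of the 10 genes. All 7 were found letter for letter in mm9. Promoters of 3 genes are shown because their levels differed across libraries in different ways, C1qb with the other C1q chains, Cd68 with C1q at a lower level, and Mrc1 apart from them in some libraries. All 3 promoters lie before the start of the gene's own mm9 model, and overlap with exons of other genes was not examined. Each is the 250 bases before the RefSeq start, written 5′ to 3′ on the gene's strand, and lies in mm9 at chr4:136442116-136442365 (minus strand) for C1qb, chr11:69479673-69479922 (minus strand) for Cd68 and chr2:14150791-14151040 (plus strand) for Mrc1. Capitals mark GAGGAA on either strand (TTCCTC when read on the other), the core bound by the myeloid factor PU.1, and TGANTCA, the site of AP-1 factors.
C1qb: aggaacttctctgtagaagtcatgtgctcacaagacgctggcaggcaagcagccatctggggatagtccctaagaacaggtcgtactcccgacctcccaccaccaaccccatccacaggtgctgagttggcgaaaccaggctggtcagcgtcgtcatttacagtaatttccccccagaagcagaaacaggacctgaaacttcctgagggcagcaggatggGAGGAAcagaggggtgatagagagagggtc
Cd68: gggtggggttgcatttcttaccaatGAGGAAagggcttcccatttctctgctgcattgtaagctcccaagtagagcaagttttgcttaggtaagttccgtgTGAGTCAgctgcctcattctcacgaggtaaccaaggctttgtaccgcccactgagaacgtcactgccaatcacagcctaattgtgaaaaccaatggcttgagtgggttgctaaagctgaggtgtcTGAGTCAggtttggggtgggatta
Mrc1: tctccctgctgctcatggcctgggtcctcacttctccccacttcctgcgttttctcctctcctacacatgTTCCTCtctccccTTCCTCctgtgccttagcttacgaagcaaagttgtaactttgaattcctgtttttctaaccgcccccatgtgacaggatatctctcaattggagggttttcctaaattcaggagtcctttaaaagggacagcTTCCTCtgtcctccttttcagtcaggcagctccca
GAGGAA was present in the 250 bases of 5 of the 7 genes (C1qb, C1qc, Fcgr3, Cd68 and Mrc1) and in 23.25% of the 32851 promoters in the table. It began 30 bases before the start in C1qb, 193 in C1qc and 225 in Cd68, and Mrc1 held it 3 times, at 180, 167 and 35 bases. TGANTCA was present in Cd68 alone, at 149 and 24 bases, and in 6.749% of all promoters. TATAAA was in none of the 7 and in 12.37% of all. The matches do not overlap each other, and they describe letters, not binding.

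The C1q chains were low in normal males and many times higher in normal females. C1qa, the A chain, stood at 3.80, 1.68 and 2.07 CPM in MN replicates 1, 2 and 3 and at 41.2, 25.7 and 19.6 CPM in FN. C1qb, the B chain, stood at 5.62, 3.81 and 3.10 CPM in MN and at 41.4, 32.9 and 21.8 CPM in FN. C1qc, the C chain, stood at 4.22, 3.14 and 1.95 CPM in MN and at 39.5, 30.3 and 15.5 CPM in FN. For each chain every FN library lay above every MN library, by at least 3.67 times between the nearest ones. Such a lack of overlap in this direction was seen for 7 of the 10 genes and for 9.66% of the 13360 genes tested outside the sex chromosomes. The log2 fold change of FN versus MN was 3.62 for C1qa (standard error 0.90), 3.05 for C1qb (standard error 1.00) and 3.31 for C1qc (standard error 0.87).

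With the tumor the male libraries separated and the female ones were high. In MT, C1qa stood at 1.64, 2.50 and 31.5 CPM, C1qb at 0.503, 1.94 and 33.5 CPM and C1qc at 1.51, 2.92 and 26.5 CPM. MT replicates 1 and 2 lay within or below the MN range for all 3 chains, and MT replicate 3 alone lay within the FN range of each. In FT, C1qa stood at 38.5, 18.1 and 60.4 CPM, C1qb at 33.7, 20.7 and 73.5 CPM and C1qc at 33.7, 18.7 and 68.7 CPM. The FT and FN values overlapped for all 3 chains, and FT replicate 3 held the highest value of each.

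**Figure D1:**
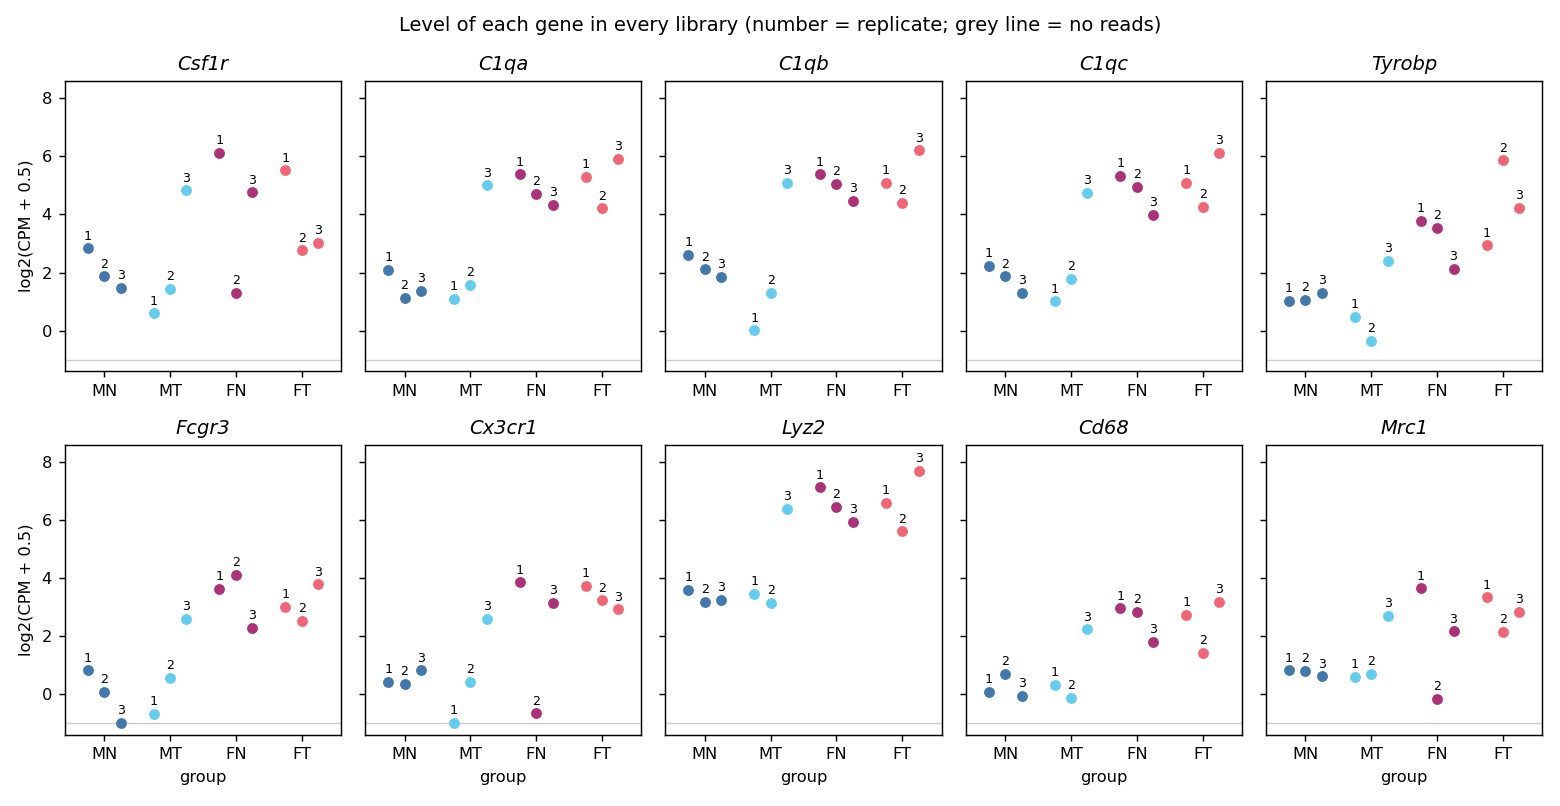
Level of each of the 10 genes as log2(CPM + 0.5) on the vertical axis in every library, with 1 point for each replicate of MN, MT, FN and FT on the horizontal axis; the digit is the replicate and the grey line marks a level of no reads. MT replicate 3 lies above the other male libraries in every panel, though for Cx3cr1 it lies below every female library but FN replicate 2. FN replicate 2 falls to male levels or below for Csf1r, Cx3cr1 and Mrc1 but not for the C1q chains or Lyz2.

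The proportions of the chains were steady where reads were many. As a share of the summed RPKM of the 3 genes, C1qa made up 35.0% (FN replicate 2) to 43.3% (FT replicate 1) in the 6 female libraries and 40.5% in MT replicate 3. C1qb made up 36.3% to 42.8% in the female libraries and 41.1% in MT replicate 3. C1qc made up 17.1% to 22.2% in the female libraries and 18.4% in MT replicate 3. These 7 libraries held 264 to 1453 reads on the 3 genes. The other 5 male libraries held 29 to 97 reads, and there the share of C1qa ran from 24.0% to 55.8% and that of C1qb from 16.4% to 51.9%. The A and B chains were close in RPKM and the C chain was lower, in these 7 libraries without exception. That order depends on the exon lengths used, 1931 bases for C1qc against 1040 for C1qa and 1088 for C1qb. In CPM, C1qa, C1qb and C1qc stood at 41.2, 41.4 and 39.5 in FN replicate 1 and at 19.6, 21.8 and 15.5 in FN replicate 3. In the RPKM that the paper reported for FN, C1qc was close to C1qa.

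**Figure D2:**
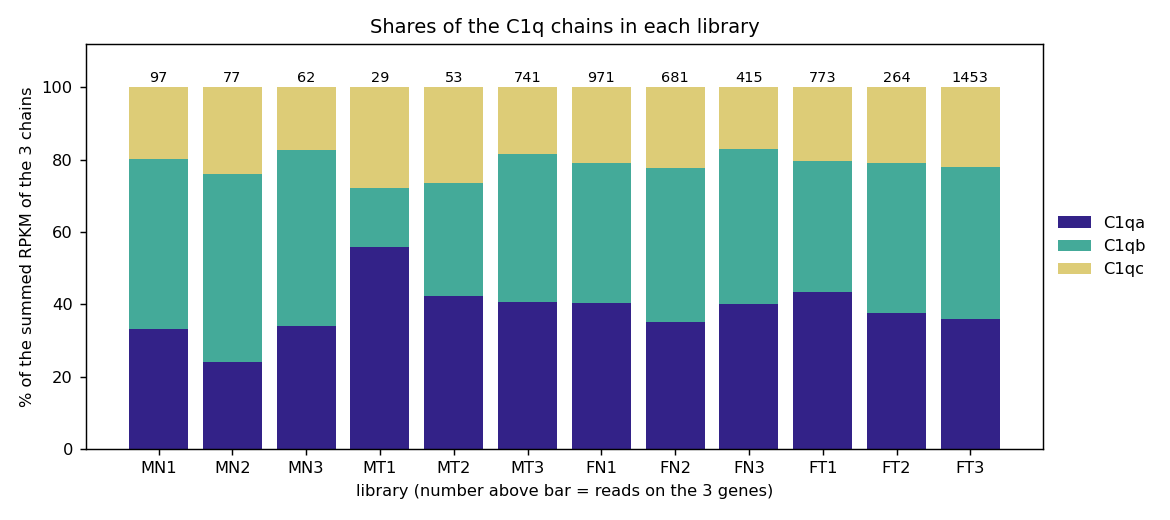
Share of C1qa, C1qb and C1qc in their summed RPKM (vertical axis, percent) in each of the 12 libraries (horizontal axis), with the number of reads on the 3 genes above each bar. The shares vary most in the MN libraries and in MT replicates 1 and 2, which held 29 to 97 reads. The low share of C1qc depends on the exon length used for it.

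Csf1r, the receptor that macrophages need for survival, lies at chr18:61265226-61291803 in mm9 on the plus strand, and was higher in some female libraries and not in others. It stood at 6.61, 3.14 and 2.30 CPM in MN, at 1.01, 2.22 and 28.0 CPM in MT, at 69.1, 1.96 and 26.6 CPM in FN and at 45.5, 6.31 and 7.67 CPM in FT. FN replicate 2, FT replicate 2 and FT replicate 3 lay below the other 3 female libraries, and FN replicate 2 lay below all MN libraries. Those are the libraries with many reads mapped to several places, and 33.4% of the 13835 genes tested lay in this order. The ratio of Csf1r to C1qa in CPM was 0.0761, 0.349 and 0.127 in these libraries in that order, and 0.615 to 1.87 in the other 9 libraries. Hmgxb3, which overlaps it, stood at 5.35, 22.0 and 10.3 CPM there, and at 24.0 to 52.5 CPM in the others. The log2 fold change of Csf1r was 3.00 in FN versus MN (standard error 1.19).

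Cx3cr1, the receptor for the neuronal chemokine fractalkine, and Mrc1, the mannose receptor of resident macrophages, followed Csf1r in FN replicate 2 and less so in FT. Cx3cr1 stood at 0.844, 0.785 and 1.26 CPM in MN, at 0, 0.834 and 5.56 CPM in MT, at 14.0, 0.130 and 8.36 CPM in FN and at 12.9, 8.93 and 7.11 CPM in FT. The value in FN replicate 2 was 1 read and that in MT replicate 1 was 0 of 7950797 reads, for which up to 3 reads, or 0.377 CPM, cannot be told from 0. Mrc1 stood at 1.27, 1.23 and 1.03 CPM in MN, at 1.01, 1.11 and 6.05 CPM in MT, at 12.1, 0.391 and 3.97 CPM in FN and at 9.60, 3.92 and 6.69 CPM in FT. For both genes FN replicates 1 and 3 lay above every MN library and FN replicate 2 lay below them all. The value of Mrc1 in FN replicate 2 was 3 reads, which is also at the floor. Their log2 fold changes in FN versus MN were 2.91 for Cx3cr1 (standard error 1.16) and 2.20 for Mrc1 (standard error 0.88).

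Csf1r, Cx3cr1 and Mrc1 are the 3 genes of the set with the longest exons, 5229, 3729 and 5947 bases, against 564 to 1931 for the other 7. In FN replicate 2, relative to the mean of FN replicates 1 and 3, they differed by -4.14, -4.17 and -3.07 in log2(CPM + 0.5), whereas the other 7 differed by -0.14 (C1qa) to 1.14 (Fcgr3). Over 13655 genes tested with a gene model, the same difference had a median of 0.90 for genes with under 2000 exon bases and of -0.996 for genes with over 3500. In FT replicate 3, relative to FT replicate 1, the medians were 0.65 and -0.64, and Csf1r, Cx3cr1 and Mrc1 differed by -2.49, -0.82 and -0.49. In FT replicate 2 they were -0.23 and -0.53, and the 3 genes differed by -2.76, -0.51 and -1.19, while Cd68 differed by -1.32, C1qa by -1.07 and Tyrobp by 2.94. Spearman's rho of the difference with exon length over these genes was 0.04 for FT replicate 2, compared with -0.41 for FN replicate 2 and -0.47 for FT replicate 3. The part of exon length in the order of the female libraries was not tested.

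**Figure D3:**
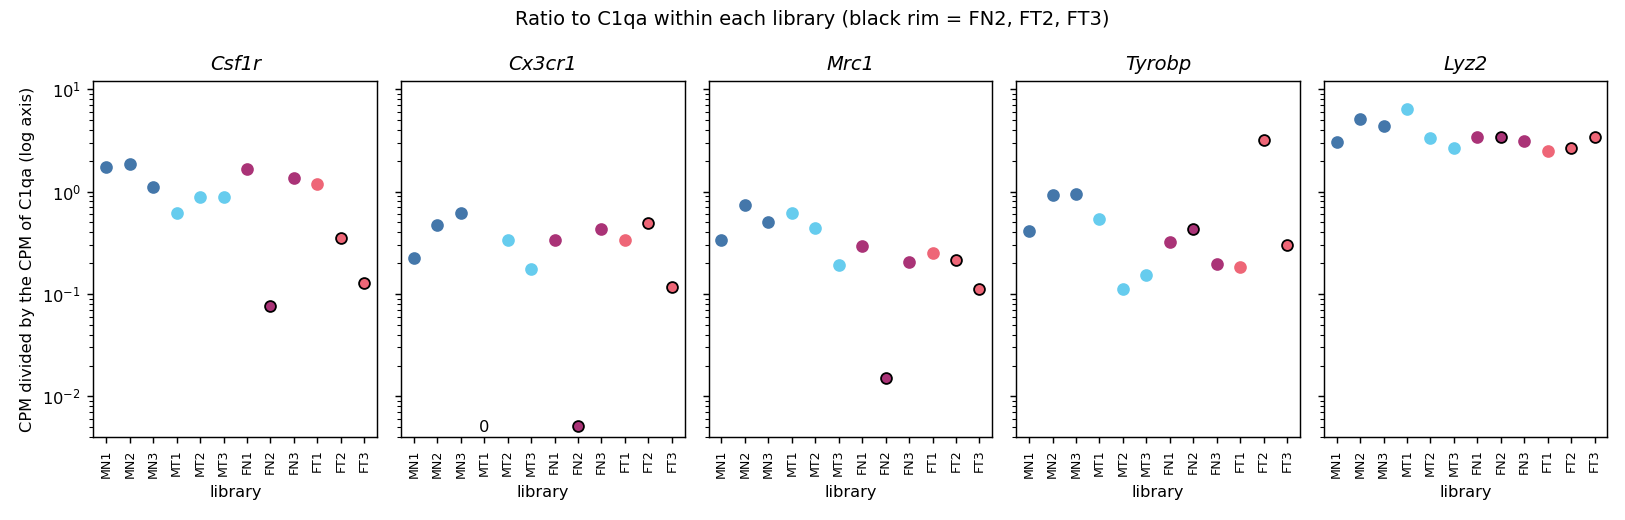
CPM of Csf1r, Cx3cr1, Mrc1, Tyrobp and Lyz2 divided by the CPM of C1qa (vertical axis, log scale) in each of the 12 libraries (horizontal axis), with black rims on FN replicate 2, FT replicate 2 and FT replicate 3 and a 0 where no read was counted. Lyz2 stays between 2.48 and 6.46 times C1qa, while Csf1r runs from 0.0761 to 1.87 and Tyrobp reaches 3.20 in FT replicate 2.

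Tyrobp, the adaptor that carries signals of TREM2 and related receptors, was higher in females and highest in FT replicate 2. It stood at 1.55, 1.57 and 1.95 CPM in MN, at 0.880, 0.278 and 4.82 CPM in MT, at 13.2, 11.1 and 3.84 CPM in FN and at 7.13, 57.9 and 18.3 CPM in FT. Every FN library lay above every MN library and every FT library above every MT library, the latter seen for Tyrobp and Cx3cr1 among the 10 genes and for 8.03% of the 13360 genes tested. The value in FT replicate 2 was the highest of the 12, and there the ratio to C1qa was 3.20, against 0.111 to 0.944 in the others. Fcer1g, the adaptor of Fc receptors, was also highest there, at 44.2 CPM against 0.562 to 22.2 CPM in the other libraries. The log2 fold change of Tyrobp was 2.59 in FN versus MN (standard error 0.92) and 4.11 in FT versus MT (standard error 0.96).

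Fcgr3, a receptor for the Fc part of IgG, had the largest fold of the set between normal females and males. It stood at 1.27, 0.560 and 0 CPM in MN and at 11.9, 16.7 and 4.38 CPM in FN. Its log2 fold change was 4.36 (standard error 1.10) and rests on 9, 5 and 0 reads in MN. In MT it stood at 0.126, 0.972 and 5.56 CPM and in FT at 7.54, 5.23 and 13.2 CPM. Its FN libraries lay above all MN libraries, whereas MT replicate 3 reached above the lowest FT library.

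Lyz2, the lysozyme of macrophages and other myeloid cells, had the highest mean RPKM of the set (48.9 over the 12 libraries), and Mrc1 had the lowest (0.677). Lyz2 stood at 11.7, 8.63 and 9.07 CPM in MN, at 10.6, 8.34 and 83.6 CPM in MT, at 139, 87.4 and 60.4 CPM in FN and at 95.6, 48.3 and 208 CPM in FT. Cd68, a lysosomal glycoprotein of phagocytes, stood at 0.562, 1.12 and 0.459 CPM in MN, at 0.755, 0.417 and 4.20 CPM in MT, at 7.29, 6.65 and 3.01 CPM in FN and at 6.17, 2.18 and 8.51 CPM in FT. Both followed the C1q chains, with FN above MN in every library and MT replicate 3 among the females. Their log2 fold changes in FN versus MN were 3.39 for Lyz2 (standard error 0.78) and 3.07 for Cd68 (standard error 0.81).

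Normal females against normal males was the comparison in which the set stood out most. All 10 genes had a positive log2 fold change, from 2.20 (Mrc1) to 4.36 (Fcgr3), with a median of 3.06 against 0.07 over the 13360 genes tested, of which 54.3% were positive. No gene of the set, and none of all those tested, passed an adjusted p of 0.05 in edgeR's quasi-likelihood test over the 12 libraries (0.00% of genes called, adjusted p = 0.809 for each of the 10). At an unadjusted p under 0.05 all 10 were higher, against 5.21% of all genes, and the unadjusted value ran from 0.000646 for Lyz2 to 0.0254 for Mrc1. By the criteria the study used (unadjusted p under 0.05, over 1.5-fold, RPKM over 5 in either group), Csf1r, C1qa, C1qb, C1qc, Tyrobp, Fcgr3 and Lyz2 qualified, 7 of 10 against 3.58% of all genes. In all comparisons these criteria were applied here to the p-values and folds of edgeR, whereas the study used DESeq. The genes that qualify can therefore differ from those of the study.

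The number of calls differed between fits. DESeq2 called 5 of the 10 higher (C1qa, C1qc, Fcgr3, Lyz2 and Cd68, against 0.150% of all genes) and limma-voom with sample quality weights called all 10 (against 4.96%). In a fit of FN replicates 1 and 3 and MN alone, chosen after the data were seen, edgeR called all 10 higher, with adjusted p from 6.43e-05 (Lyz2) to 0.0138 (Tyrobp), against 3.98% of all genes. Log2 fold changes there were 3.57 for Csf1r (standard error 0.40), 3.46 for Cx3cr1 (standard error 0.38) and 2.71 for Mrc1 (standard error 0.47). In every setting that tested a gene its log2 fold change was positive, while the adjusted p reached 1.00 for each. Cx3cr1 and Mrc1 were not tested in the fit of the 6 libraries of FN and MN alone, where they did not pass the filter on low counts. Without FN replicate 1, the library with the highest Csf1r, Cx3cr1 and Mrc1, the log2 fold change of Csf1r was 1.83 and that of Mrc1 was 0.91. In RNA of pooled sorted cells, more macrophages among the cells and more of this RNA per cell, in neurons or in other cells, cannot be told apart. By immunostaining the paper reported Csf1R and C1qa protein in a larger share of WGA-labeled neurons in normal females than in normal males.

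**Figure D4:**
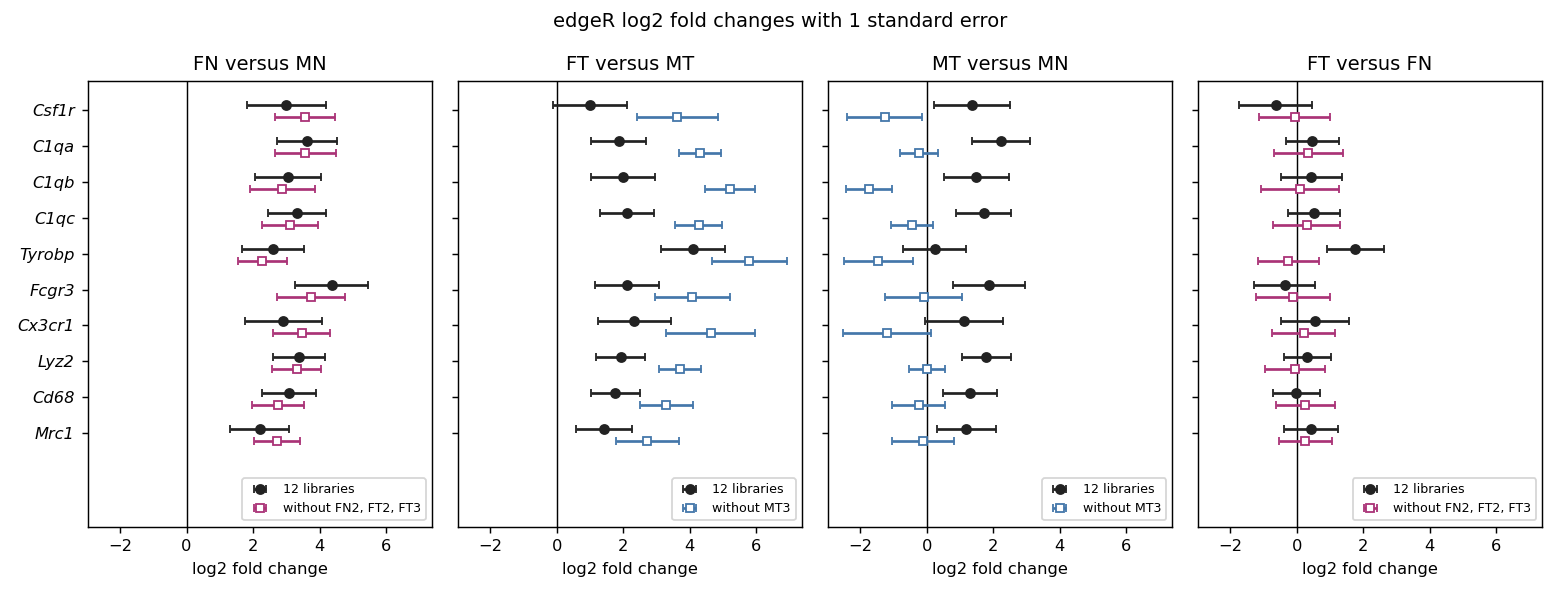
edgeR log2 fold change of each of the 10 genes (horizontal axis) with bars of 1 standard error in 4 comparisons; black circles are the fit of all 12 libraries, purple squares the fit without FN2, FT2 and FT3 (replicates 2 of FN and FT and replicate 3 of FT, which leaves 1 FT library) and blue squares the fit without MT3 (replicate 3 of MT). FN versus MN stays between 2.20 and 4.36 over the 12 libraries, while MT versus MN lies above 0 for all genes with MT3 and below 0 for all without it.

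In tumor-bearing animals females were again higher, with a wider spread. All 10 genes had a positive log2 fold change in FT versus MT, with a median of 1.96 against 0.07 over all genes, of which 54.1% were positive, and none passed the adjusted threshold (edgeR adjusted p = 0.294 for Tyrobp, the lowest). At an unadjusted p under 0.05, 6 of the 10 were higher (C1qa, C1qc, Tyrobp, Fcgr3, Lyz2 and Cd68), against 9.96% of all genes. C1qa, C1qc, Tyrobp and Lyz2 met the criteria of the study, against 6.85% of all genes. The size depended on MT replicate 3. Without it the log2 fold changes ran from 2.73 (Mrc1) to 5.79 (Tyrobp), that of C1qb became 5.21 instead of 1.99, and all 10 had an unadjusted p under 0.05, against 7.21% of all genes, with the lowest edgeR adjusted p at 0.088 for C1qa and C1qb. DESeq2 called Tyrobp alone (adjusted p = 0.000477, against 1.84% of all genes), and so did edgeR without FT replicate 1 (adjusted p = 0.0363, against 3.71%), a setting in which Csf1r had -0.29.

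In males the tumor comparison was carried by a single library. MT replicate 3 lay above each of the other 5 male libraries for all 10 genes, which held for 27.9% of the 13835 genes tested. Its summed level of the 10 genes was 229 CPM, against 18.0 and 21.5 CPM in MT replicates 1 and 2 and 23.2 to 37.4 CPM in MN. Over the 12 libraries the log2 fold changes of MT versus MN were positive for all 10, against 51.2% of all genes, with a median of 1.43 against 0.01, and C1qa (2.22, standard error 0.87) and Lyz2 (1.79, standard error 0.74) had an unadjusted p under 0.05, against 0.347% of all genes. Both met the criteria of the study, against 0.132% of all genes. None passed the adjusted threshold (edgeR adjusted p = 1.00 for each), and all 10 overlapped between the groups, whereas 5.80% of all genes lay higher in every MT library. Without MT replicate 3 all 10 were negative, whereas 48.9% of all genes were positive, from -0.00271 (Lyz2) to -1.73 (C1qb). MT replicate 3 did not stand apart in sex, with Xist at 0.370 CPM and Ddx3y at 68.0 CPM, or in its reads mapped to several places.

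In females no gene of the set differed with the tumor beyond the spread between libraries. Of the 10 genes 7 had a positive log2 fold change in FT versus FN, against 44.4% of all genes, with a median of 0.44 against -0.06, and all 10 overlapped between the groups, whereas 1.22% of all genes lay higher in every FT library. Tyrobp had the largest, 1.76 (standard error 0.86, edgeR adjusted p = 0.994), and Csf1r the lowest, -0.64 (standard error 1.09, edgeR adjusted p = 0.994). In the 9 libraries with 43.0% to 45.5% of reads in several places, where FT is replicate 1 alone and is assumed to vary like the other groups, the value of Tyrobp was -0.25. Over the 12 libraries no gene had an unadjusted p under 0.05 in edgeR's test, against 3.17% of all genes higher. None met the criteria of the study with edgeR's values, against 1.98% of all genes. The paper, which used DESeq, lists C1qc among its genes higher in FT than in FN. The tumor effect of females minus that of males ran from -2.24 (Fcgr3, standard error 1.41) to 1.52 (Tyrobp, standard error 1.27) on the log2 scale, with no gene at an unadjusted p under 0.05, against 0.990% of all genes higher and 0.477% lower. It was positive for 1 of 10, against 44.7% of all genes. Its standard errors ran from 1.01 (Lyz2) to 1.58 (Csf1r), so that several-fold differences could not be detected at this spread.

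The 10 genes did not all move as 1 block across libraries. Over the 12 libraries, which share group, depth and the technical split described above, Spearman's rho with the mean log2 level of C1q was 0.92 for Lyz2, 0.92 for Fcgr3, 0.91 for Cd68 and 0.81 for Tyrobp, and 0.78 for Mrc1, 0.74 for Csf1r and 0.67 for Cx3cr1, with Pearson's r from 0.70 (Csf1r) to 0.98 (Lyz2). Among genes outside the set, those most like C1q were 2810055G20Rik (rho 0.97), Clec4a1 (0.96), Ctss (0.96), P2ry6 (0.94), H2-Eb1 (0.94) and Fcgr2b (0.94). Ctss, a lysosomal protease that trims MHC class II, stood at 2.52 to 2.81 CPM in MN, at 2.52, 5.14 and 38.6 CPM in MT, at 12.2 to 27.4 CPM in FN and at 13.1 to 53.4 CPM in FT. Those most like Lyz2 were Lilra5, Ms4a6c, Fam33a, Clec4a1, Maf1 and Pltp (rho 0.92 to 0.96). Those most like Mrc1 were Laptm5, Aif1l, Cpne2, Ephb3, Stab1 and Rreb1 (rho 0.91 to 0.93), and those most like Cx3cr1 were Stab1, Ephb3, Hhex, Myo10, Daam2 and Kcnk5 (rho 0.92 to 0.96). Clec4a1 was thus among the nearest to both C1q and Lyz2, and Stab1 and Ephb3 to both Mrc1 and Cx3cr1.

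Other genes known from macrophages or tied to the function of the 10 genes were examined in lists. Which cells their RNA came from was not tested. No gene of any list passed the adjusted threshold in edgeR's test over the 12 libraries in any comparison, so counts at an unadjusted p under 0.05 are given, to be read against 5.21% of all genes higher in FN versus MN. Of 26 other macrophage genes 21 were tested, all 21 with a positive log2 fold change in FN versus MN (median 1.81), and 10 were higher. The most abundant were Coro1a, which stood at 232 to 284 CPM in MN and at 258 to 403 CPM in FN, Cd14, Maf and Ctss. Of the 6 other Fc receptor genes 5 were tested and 3 were higher (Fcer1g, Fcgr2b and Fcgr4, with log2 fold changes of 3.17, 3.54 and 3.99), while Fcgrt, the most abundant, had 0.74 (standard error 0.40). Of the 13 partners and signaling genes of Tyrobp 5 were tested and 2 were higher, Trem2 (2.60) and Siglech (at most 0.141 CPM in MN and 0.130 to 4.78 CPM in FN), while Lyn and Plcg2, the most abundant, had -0.28 and 0.29.

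The ligands of the receptors were not among the genes that differed. Csf1 stood at 14.5 to 20.9 CPM in MN and at 16.0 to 35.9 CPM in FN, a log2 fold change of 0.52 (standard error 0.39). Il34 stood at 16.9 to 21.3 CPM in MN and at 19.2 to 23.5 CPM in FN, a log2 fold change of 0.28 (standard error 0.38). Of the 10 genes for these ligands and for myeloid transcription factors 3 were higher at an unadjusted p under 0.05, namely Cebpb (1.70), Nr1h3 (1.22) and Sfpi1 (3.04), which encodes PU.1. Cebpb stood at 4.64, 5.16 and 8.61 CPM in MN and at 8.67, 33.4 and 9.04 CPM in FN, highest in FN replicate 2. Sfpi1 stood at 0.422, 0 and 0.115 CPM in MN and at 2.77, 0.391 and 1.23 CPM in FN. Its values in MN and FN replicate 2 were at the floor of 3 reads or below it. Cx3cl1, the ligand of Cx3cr1, had 0.06 (standard error 0.72), with 26.0 to 44.2 CPM in MN and 46.3, 4.96 and 64.0 CPM in FN. Of the 9 chemokine and receptor genes around it 3 were higher, Ccl2 (1.32), Ccl4 (3.18) and Ccl3 (3.07). Ccl2 overlapped between the groups, with 5.06, 11.5 and 4.13 CPM in MN and 7.67, 26.2 and 11.5 CPM in FN replicates 1, 2 and 3.

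Of 21 further genes of the complement cascade 12 were tested and none was higher or lower at an unadjusted p under 0.05 in FN versus MN. Their log2 fold changes were positive for 10 of 12, with a median of 0.41. C4b, a component cleaved downstream of C1q, was the most abundant, at 12.1 to 23.5 CPM in MN and 18.8 to 40.5 CPM in FN (0.84, standard error 0.42), followed by C2 (-0.20), Mbl2 (0.60) and Cfb (-0.72). Of 18 regulators and receptors 13 were tested and 3 were higher, the anaphylatoxin receptors C3ar1 (4.28) and C5ar1 (2.60) and the regulator Cd59a (1.30). The most abundant of the list, Clu, Calr, Cd55 and Serping1, had log2 fold changes of -0.14, 0.03, -0.81 and 0.10.

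Markers of other cells that a sorted ganglion suspension could hold were examined in the same way, with counts at an unadjusted p under 0.05 in FN versus MN. Summed over 13 neutrophil genes, the level was 12.0 to 68.4 CPM in MN and 63.0 to 349 CPM in FN, and 5 of 9 tested were higher, among them S100a8 (2.69) and Lcn2 (2.60). Lcn2 stood at 10.4, 20.7 and 41.1 CPM in MN and at 51.2, 270 and 40.5 CPM in FN replicates 1, 2 and 3. It overlapped between the groups and made up most of the 349 CPM, which was the sum in FN replicate 2. Summed over 10 dendritic cell genes, chiefly Cd74 and MHC class II, it was 41.6 to 47.9 CPM in MN, 53.8 to 102 CPM in FN, 74.0 to 197 CPM in FT and 35.1, 38.6 and 209 CPM in MT, the last in MT replicate 3, and 1 of 6 tested was higher, Cd74 (2.38). Summed over 10 satellite glia genes it was 4679 to 5547 CPM in MN and 8706 to 17174 CPM in FN, and 2 of 9 tested were higher. Most of this sum was Apoe alone, at 3280 to 3968 CPM in MN and at 6547, 15599 and 6516 CPM in FN replicates 1, 2 and 3. Summed over 10 endothelial genes the level was 366 to 934 CPM in MN and 786 to 1206 CPM in FN, and 1 of 10 was higher. The part of these cells in the values of the 10 genes was not tested.

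Of 9 microglia genes 5 were tested and 2 were higher, Sparc (0.84) and Siglech, while Tmem119 reached 1.98 CPM and Sall1 0.123 CPM at most. Of 10 monocyte genes 6 were tested and 1 was higher, Ly6c1 (1.74), which endothelial cells also express. Of the lymphocyte genes Cd3e, Cd3g and Ncr1 were at 0 in all 12 libraries, and the summed level of the list was at most 9.14 CPM, in FT replicate 2. Of 5 red blood cell genes the 4 globins were at 0 in all libraries, and Alas2 stood at 0 to 2.96 CPM. Globin reads that mapped to several places were not counted, so these zeros do not show that red blood cells were absent. Of 10 fibroblast genes 2 were higher and of 9 Schwann cell genes 1 was. Summed over 20 sensory neuron genes the level was 27727 to 29031 CPM in MN and 24085 to 34060 CPM in FN, with Tac1 higher (1.34) and Scn10a lower (-0.90). Both stood furthest from MN in FN replicate 2. Tac1 was at 661 to 839 CPM in MN and at 907, 2910 and 975 CPM in FN replicates 1, 2 and 3. Scn10a was at 1017 to 1163 CPM in MN and at 697, 236 and 774 CPM in FN.

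**Figure D5:**
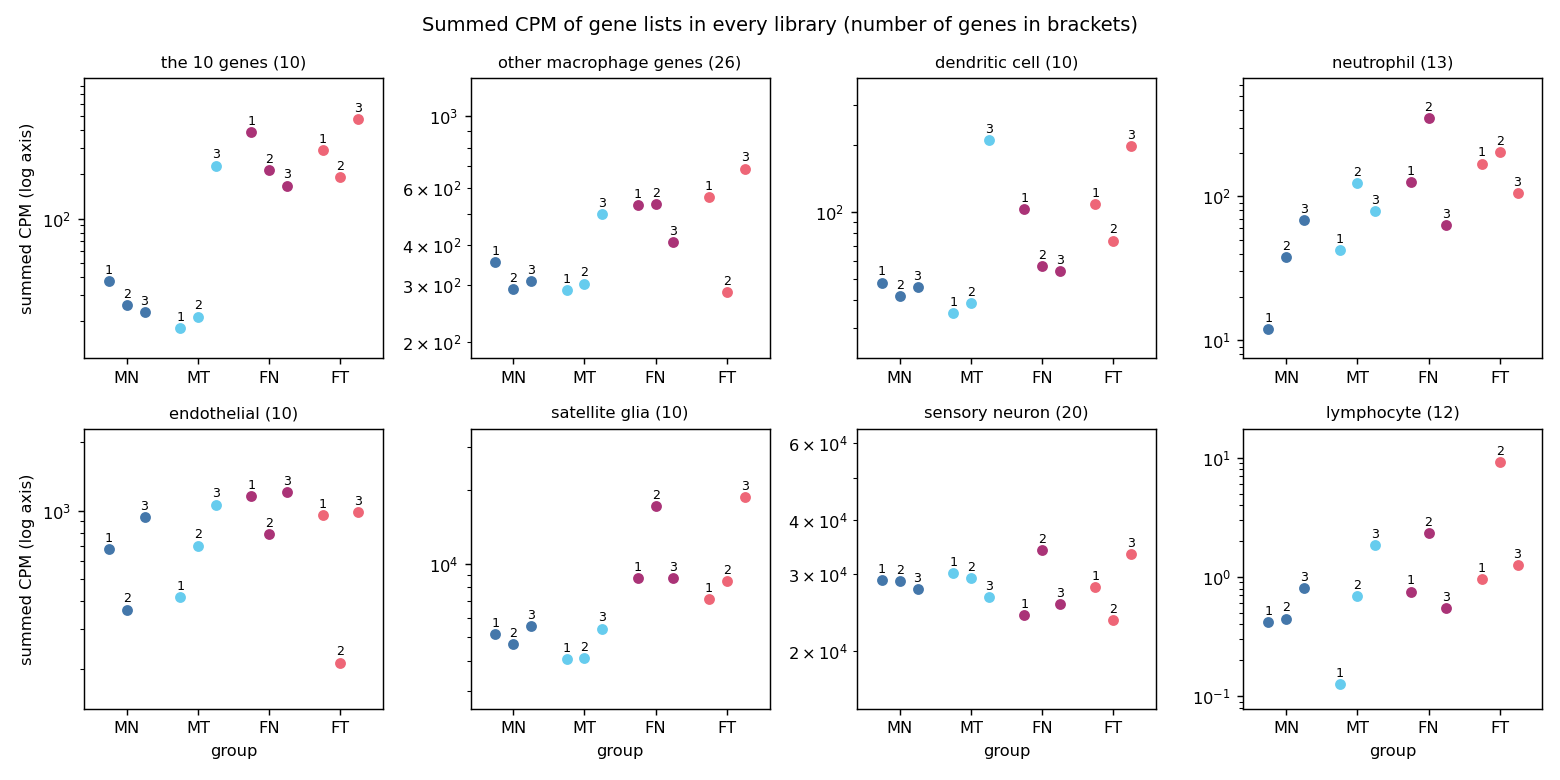
Summed CPM (vertical axis, log scale, own range in each panel) of the 10 genes and of 7 lists of marker genes in every library, with 1 point for each replicate of the groups on the horizontal axis. The 10 genes sum to 18.0 to 37.4 CPM in the MN libraries and MT replicates 1 and 2 and to 167 to 472 CPM in the female libraries and MT replicate 3, while the 20 sensory neuron genes sum to 23499 to 34060 CPM in all 12.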

How the data were processed

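RNA from 12 samples was made into libraries with the SMART-seq2 protocol, which does not mark strand, and sequenced as single reads of 50 bases. The deposited values are raw read counts per gene symbol, which the authors made with TopHat2 alignment to mm9 and HTSeq. CASAVA 1.8.2 and SAMtools are also listed in the submitters' processing notes. The annotation and strand setting of the counting are not given in the sources used here. Between 76.3% and 88.8% of reads were counted to no gene and were left out of library sizes. Counts were scaled to CPM (per 1000000 reads on genes) and, with mm9 exon lengths, to RPKM. Groups were taken from the labels. All 12 libraries entered 1 fit with TMM scaling and edgeR's quasi-likelihood test (edgeR 4.0.16, R 4.3.3), with genes kept by filterByExpr, and p-values were adjusted by Benjamini-Hochberg over all genes tested, leaving out genes on X and Y between the sexes. limma 3.58.1 and DESeq2 1.42.0 served as alternatives. The scripts for the tests were tested on simulated data. Comparisons share control samples, since MN enters FN versus MN and MT versus MN. The named genes are the 10 genes, the 4 most abundant of each list, list genes with an unadjusted p under 0.05 and the 6 genes most like a pattern, and others named were chosen after their values were seen. The 10 genes and the lists were chosen with earlier results of these data known. Floors of 3 reads cover counting error alone.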

Additional observations from a re-analysis of the deposited data

How the results depend on the processing

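The number of the 10 genes called at an adjusted p under 0.05 was 0 in every comparison over the 12 libraries. In FN versus MN it became 5 with DESeq2, 10 with limma-voom and 10 when edgeR was given FN replicates 1 and 3 with MN and no other library (chosen after seeing the data), and in FT versus MT it became 1 with DESeq2 and 0 to 1 when single libraries were left out. Calls over all genes, also 0 at first, became 20, 800, 54 and 728 in FN versus MN with DESeq2, limma-voom, the 9 libraries with ordinary shares of reads in several places, and FN and MN alone of these 9, and 0 to 1 with single libraries left out. In MT versus MN they became 2 with DESeq2, 47 with limma-voom, 6 with the 2 groups alone and 3 with the 9 libraries. In FT versus FN they became 101 with the 2 groups alone of the 9 libraries. In FT versus MT they became 246 with DESeq2, 1 with the 9 libraries and 0 to 755 with single libraries left out, the highest without FT replicate 1. In the 9 libraries FT is replicate 1 alone, which is assumed to vary like the other groups, so that 101 and 1 compare that library. The cause was not tested.

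No log2 fold change of FN versus MN changed sign. With limma-voom the log2 fold changes that changed sign were, in MT versus MN, -0.26 for Csf1r, -0.74 for C1qb, -1.42 for Tyrobp and -0.58 for Cx3cr1, in FT versus FN, 0.23 for Fcgr3, -0.0263 for Cx3cr1 and 0.37 for Cd68, and in the tumor effect of females minus that of males, 1.24 for C1qb, 0.34 for C1qc, 0.55 for Cx3cr1 and 0.31 for Cd68. In FT versus FN, 10 libraries (without FN replicate 2 and FT replicate 2) gave 0.47 for Fcgr3, -0.0792 for Cx3cr1 and 0.62 for Cd68, and the 9 libraries gave -0.25 for Tyrobp, -0.0567 for Lyz2 and 0.26 for Cd68. The 2 groups alone of these 9 gave -0.24 for Tyrobp, -0.0419 for Lyz2 and 0.27 for Cd68. Cd68, at -0.0109 over the 12 libraries, was 0.0186 with DESeq2 size factors, 0.0122 with DESeq2 and 0.0350 with the 2 groups alone. The 9 libraries gave -0.51 for Tyrobp in the tumor effect of females minus that of males.

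With single libraries left out, MT versus MN ran from -1.27 to 1.91 for Csf1r, -0.23 to 2.73 for C1qa, -1.73 to 2.05 for C1qb, -0.45 to 2.22 for C1qc, -1.45 to 0.73 for Tyrobp, -0.0896 to 2.88 for Fcgr3, -1.18 to 1.69 for Cx3cr1, -0.00271 to 2.24 for Lyz2, -0.24 to 1.79 for Cd68 and -0.11 to 1.57 for Mrc1, each lowest without MT replicate 3. FT versus FN ran from -1.93 to 0.53 for Csf1r, -0.18 to 0.70 for C1qb, -0.0784 to 0.80 for C1qc, -0.78 to 0.27 for Fcgr3, -0.0199 to 1.35 for Cx3cr1, -0.37 to 0.64 for Lyz2, -0.43 to 0.30 for Cd68 and -0.0914 to 1.72 for Mrc1. FT versus MT ran from -0.29 to 3.62 for Csf1r. The tumor effect of females minus that of males ran from -3.29 to 0.63 for Csf1r, -2.26 to 0.70 for C1qa, -1.68 to 2.17 for C1qb, -1.79 to 0.97 for C1qc, -1.14 to 1.72 for Cx3cr1, -2.15 to 0.32 for Lyz2, -1.80 to 0.22 for Cd68 and -1.29 to 0.54 for Mrc1.

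The replicate numbers do not pair the samples. Deviations from the group means correlated from -0.35 to 0.57 between libraries of the same number (5 of 18 pairs over 0.1) and from -0.65 to 0.61 between others (8 of 36). With the replicate block 0 of the 10 genes were called in every comparison, and Lyz2 in FT versus FN was -0.0678 and Cx3cr1 in the tumor effect of females minus that of males was 0.12. Low counts limit the male values, with 3 or fewer reads in at least 1 male library for Tyrobp, Fcgr3, Cx3cr1 and Cd68. They also limit FN replicate 2, with 1 read of Cx3cr1 and 3 of Mrc1.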
